A study of Mus musculus with 2 samples.

Results

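DNA replication and G1/S genes were described by symbol in mouse blood RNA, as every probe outside the array's controls whose gene name equals 1 of 39 listed symbols. All 39 were found among the 37074 gene names on the arrays, with 73 of the 56605 probes. The list was set by the genes' known roles and not by a measured value, although earlier results of these data were known when it was chosen. Heat treatment meant 1 h at 38.5 °C after 1 h in a water bath at 37 °C, and the control sample had no temperature or time in the labels. Each group held 1 one-colour Agilent array hybridised with RNA from blood, although the protocol text mentions 3 replicates, and the labels gave no strain or age and did not say whether animals or drawn blood were heated. No difference below therefore has a replicate check or a p-value, and the effects of heating, of the water bath and of handling cannot be told apart.

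Cells copy their DNA once per division in ordered steps. In G1, the origin recognition complex, Cdc6 and Cdt1 load the ring-shaped MCM helicase onto origins, which is called licensing. Cyclin E and E2F transcription factors then drive entry into S phase, Cdc45 and the GINS complex switch the helicase on, and primase, polymerases, the PCNA clamp and ligase copy and join the strands. Most mature blood leukocytes are not dividing, and these genes are known as marks of cycling cells.

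Both arrays lay on 1 slide and had 1 scan time, with 30471 (heat) and 29460 (control) probes well above background. All 10 monocyte and macrophage markers and all 12 dividing-cell markers were detected on both arrays. Detection of the other blood cell types was uneven. On both arrays, 7 of 9 neutrophil markers and 5 of 8 T cell markers were well above background, Csf3r, S100a9, Il7r, Cd4 and Cd3e among them, while Ly6g, Cxcr2, Cd3g and Cd8a were not on either. Of 8 erythroid markers 2 were detected on both arrays, Hba-a1 and Epor, and Hbb-b1, Hbb-bt, Alas2, Klf1 and Slc4a1 were among those on neither. Of 7 B cell markers 2 were detected on both, Cd79b and Cd22, and Cd79a, Ms4a1, Pax5 and Blk were on neither. For NK cells 2 of 7 markers were detected on both, Klrb1c and Prf1, and for platelets 1 of 6, Pf4. Summed over measured probes in multiples of the array's 75th percentile, control signals were 1570 for monocyte and macrophage markers and 347 for dividing-cell markers. They were 114 for neutrophil, 39.1 for T cell, 15.8 for platelet, 1.64 for B cell, 0.367 for NK and 0.171 for erythroid markers. On the control array Il7r had a log2 signal of 5.16 over that percentile, and Cd3d, Cd3e, Cd4 and Lck lay between -3.64 and -1.36. Likewise Csf3r had 6.40, and the other measured neutrophil markers lay between -2.56 and 3.29. These sums come from different probes and are no shares of cells. The labels' protocols include differential lysis of red and white cells and removal of globin transcripts.

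Every one of the 39 genes was measured on both arrays, and most were slightly lower in the heated sample. Values are log2 processed signals minus the array's 75th percentile, averaged over a gene's probes well above background on both arrays, and differences are heat minus control on that scale. Of the 73 member probes, 71 passed this filter, and the other 2, of Pole and Tk1, were dim on both arrays. Of the 39 genes, 29 were below 0 and 10 above 0, which is 74.4% below 0. Among all 18562 genes measured, 47.8% were below 0. The median difference was -0.073 for the 39 genes and 0.0076 for all genes, and a median of -0.073 corresponds to a ratio of 0.951. The members' differences ran from -0.50 to 0.22, with quartiles of -0.13 and 0.0012. Within 0.1 of 0 lay 21 of the 39 genes, and 48.5% of all genes. In bulk RNA, fewer dividing cells and less of each RNA per cell cannot be told apart.

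None of the 39 genes was 2-fold apart between the arrays, against 0.663% of all genes, with 0.453% at least 2-fold lower. Among genes of like signal, whose mean log2 signal fell between the members' quartiles of 11.5 and 13.6, the share was 0.0805% for both counts. A finer yardstick came from probes printed at 10 spots, whose heat minus control differences varied by an SD of 0.081 between spots. Beyond 2 SD of this spread, a log2 difference of 0.163, lay 5 of the 39 genes (12.8%), namely Cdt1, Cdc6, Rfc3 and Ccne1 below 0 and Pola2 above 0. Of all genes, 32.8% lay beyond it, 15.6% lower and 17.3% higher, so the members' share was below that of all genes. Among the 2485 genes of like signal the share was 16.9%, with 8.73% lower and 8.17% higher, and 52.6% were below 0. This spread covers single spots of 1 hybridisation and not animals or samples, nor the means over several probes that 22 members have. The spread comes mostly from bright probes, since 266 of 283 had a log2 signal over 12. The SD was 0.186 over the 12 probes with a log2 signal of at most 8. It was 0.048 over 5 probes between 8 and 12 and 0.074 over the bright probes, with 2 SD at 0.096 and 0.148. By those narrower cutoffs Orc1, Pola1, Prim2 and Tyms, at their mean log2 signals, would also lie beyond 2 SD. The share of all genes by such cutoffs was not counted. The cutoff of 0.163 came from log2 processed signals and was applied unchanged under the alternatives below. The spot spread of values with normexp background correction was not measured.

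**Figure D1:**
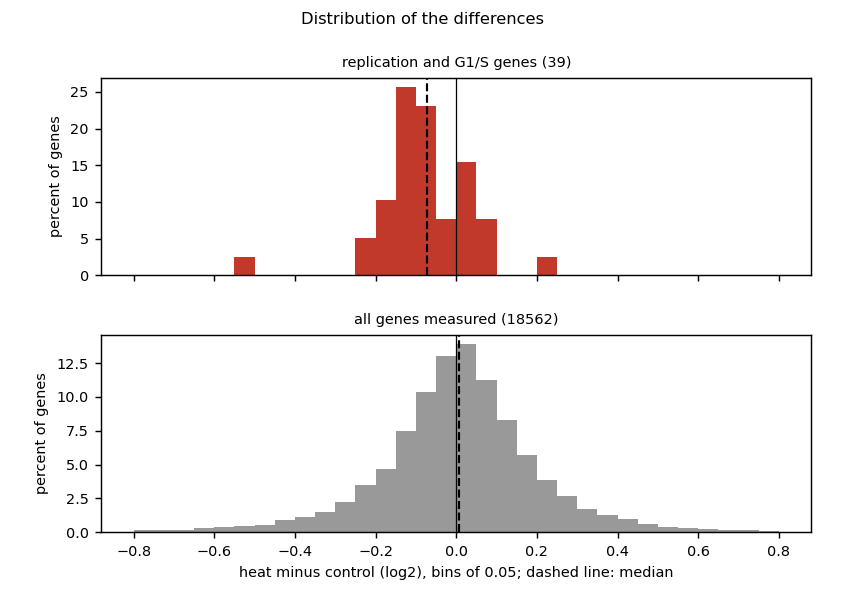
Heat minus control differences (log2, horizontal axis) as percent of genes in bins of 0.05, for the 39 replication and G1/S genes above and all 18562 genes measured below, with the median dashed. The members' median lies at -0.073 and that of all genes at 0.0076, and 216 of all genes lie beyond the axis limit of 0.8.

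The origin recognition and licensing genes were mostly below 0. Of 9 genes, 8 were below 0, with a median of -0.14 that stayed between -0.14 and -0.096 under 6 other scalings. Cdt1, which brings the MCM ring to origins and is destroyed in S phase, had a processed signal of 15838 (heat) and 23061 (control). Its difference of -0.50, a ratio of 0.705, was the lowest of the 39 genes and came from 1 probe. It grew to -0.68 and -0.70 with normexp background correction, followed by quantile or 75th percentile scaling. Cdc6, the ATPase that works with Cdt1 in loading, had signals of 1179 (heat) and 1347 (control) at 1 probe and 1982 (heat) and 2316 (control) at the other. Both Cdc6 probes were below 0, at -0.15 and -0.19, and the gene's difference was -0.17. With normexp it was inside the spot spread, at -0.12 with quantile normalization and -0.13 with the 75th percentile. Orc1, the large subunit of the origin recognition complex, had -0.15, with its 3 probes between -0.28 and -0.040.

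Of the 6 MCM ring subunits, Mcm2 to Mcm6 were below 0 by less than 2 SD of the spot spread. Mcm2 had signals of 6301 (heat) and 7122 (control) and a difference of -0.14, which was beyond that spread, at -0.17, with normexp and the 75th percentile. Mcm4 had 17429.5 (heat) and 19567 (control), a difference of -0.13. Mcm5 had 14475 (heat) and 15965 (control), a difference of -0.10. Each of these 3 genes had 1 probe, and on each the heated sample was the lower. Mcm6 had -0.14 as a mean of unequal probes, -0.032 and -0.26, and the 4 probes of Mcm3 lay between -0.093 and -0.022.

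Mcm7 stood apart because its probes disagreed. The probe at chr5:138605925-138605984 had signals of 23879 (heat) and 27764 (control), a difference of -0.18, and the probe at chr5:138610447-138610506 had 445 (heat) and 402 (control), a difference of 0.18. Each is beyond the spot spread. Their mean of 0.0026 describes neither, and its sign turned under 4 of 6 other scalings. Both probes are listed under 1 RefSeq mRNA record and lie on the minus strand in mm9, the build of the file headers. The first 30 of their 60 bases, read 5′ to 3′ from the array files, tell them apart.
Mcm7 probe below 0: aggttaatacttctcggacacggatcacct
Mcm7 probe above 0: tgagttgtatttccgaggcccaagtagcag

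**Figure D2:**
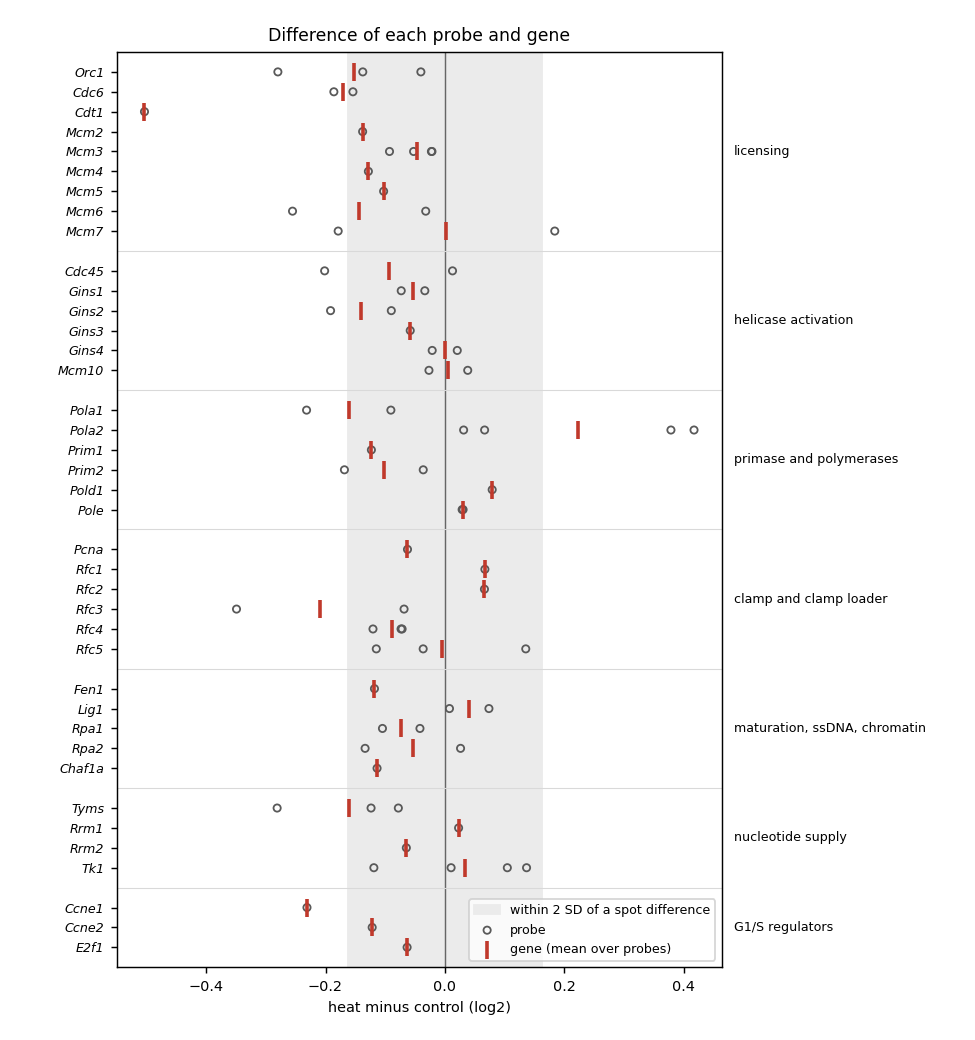
Heat minus control difference (log2, horizontal axis) of each measured probe (open circles) and gene (red bars) among the 39 genes, by role, with a grey band for 2 SD of a spot difference, 0.163. Cdt1 lies farthest below 0 at -0.50, and the Pola2 probes run from 0.031 to 0.42.

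Helicase activation genes lay nearer to 0. Cdc45, which joins the MCM ring in the active helicase, had -0.094. Its probes gave signals of 661 (heat) and 780 (control), a difference of -0.20, and 393 (heat) and 401 (control), a difference of 0.013. Of the GINS subunits, which complete that helicase, Gins2 had -0.14, Gins3 -0.058, Gins1 -0.053 and Gins4 -0.00029. Gins2 was below 0 at both probes, with 2464 (heat) and 2891 (control) at 1 of them and 7009 (heat) and 7662 (control) at the other. Mcm10, a factor needed to switch the helicase on, had 0.0058 from probes at 0.038 and -0.027. The median of these 6 genes was -0.056, and it stayed below 0 under the 6 other scalings, between -0.083 and -0.040.

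Primase and polymerase genes were split, with 3 below 0 and 3 above. Pole, 1 of those above, was below 0 with normexp, at -0.039 with quantile normalization and -0.041 with the 75th percentile. Pola1, the catalytic subunit of polymerase alpha, which starts each new strand, had -0.16, with signals of 4226 (heat) and 4622 (control) at 1 probe and 1812 (heat) and 2185 (control) at the other. Prim1, the catalytic subunit of primase, had 8067 (heat) and 9024 (control), a difference of -0.12, and Prim2, its large subunit, had -0.10. Pold1 and Pole, the catalytic subunits of the polymerases that extend the lagging and the leading strand, had 0.079 and 0.030. Pold1 had signals of 8298 (heat) and 8068 (control). The median of the 6 genes, -0.036, lay between -0.078 and -0.038 under the other scalings.

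Pola2, the accessory subunit of polymerase alpha, was the highest of the 39 genes at 0.22, and its value rested on which probes were read. The probe on the RefSeq mRNA record had signals of 423 (heat) and 415 (control), a difference of 0.067, and the probe on the cDNA record BC006945 had 97.3 (heat) and 97.8 (control), a difference of 0.031. A pair of abutting probes on the cDNA record AK045325 had 775 (heat) and 612 (control), and 754 (heat) and 580 (control), differences of 0.38 and 0.42. With RefSeq mRNA probes alone Pola2 had 0.067, inside the spot spread. All 4 probes lie on the minus strand of chromosome 19 in mm9, and gene annotation of that build was not used here. The first 30 of their 60 bases are shown with the mm9 span of each full probe.
chr19:5946484-5946543, RefSeq mRNA record: aactgtaagttgacaagcccattcgaagac
chr19:5950346-5950405, record BC006945: tgatagacaaagtcccagactataactcct
chr19:5956681-5956740, record AK045325: aggtcccgtgattgggtttcatccttaatt
chr19:5956741-5956800, record AK045325: cctgagcaagacattgtctttcctgttagt

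The sliding clamp and its loader differed little apart from 1 subunit. Pcna, the clamp that holds polymerases on DNA, had signals of 84492 (heat) and 90640 (control) and a difference of -0.063. Its probe covers chr2:132075420-132075557, a span longer than the probe's 60 bases. Rfc3, a small subunit of the clamp loader, had -0.21, with 1642 (heat) and 2149 (control) at 1 probe, a difference of -0.35. At its other probe Rfc3 had 6035 (heat) and 6500 (control), a difference of -0.068, so both were below 0 but by unequal amounts, and read at its brightest probe Rfc3 was inside the spot spread. Rfc4 had -0.089 with its 3 probes between -0.12 and -0.072. The large subunit gene Rfc1 had 0.067 and Rfc2 0.066, though Rfc2 was below 0 under 2 of 6 other scalings. Rfc5 had -0.0053, with probes from -0.11 to 0.14. The median of these 6 genes was -0.034.

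Genes of strand maturation, single-strand binding and chromatin were below 0 in 4 of 5 cases, with a median of -0.073. Fen1, the nuclease that trims flaps between Okazaki fragments, had signals of 26430 (heat) and 29462 (control) and a difference of -0.12. Lig1, the ligase that seals those fragments, had 21768 (heat) and 22241 (control) at 1 probe, a difference of 0.0077, and 0.074 at the other. The single-strand binding genes Rpa1 and Rpa2 had -0.073 and -0.054. Chaf1a, a subunit of the factor that places histones on new DNA, had 3998 (heat) and 4443 (control), a difference of -0.11. All 5 values lay inside the spot spread.

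Nucleotide supply genes were divided, with 2 below 0 and 2 above, but all 4 were below 0 with normexp and 75th percentile scaling, where Rrm1 had -0.019 and Tk1 -0.00076. Tyms, which makes thymidylate, had -0.16, just inside the spot spread, and its 3 probes ran from -0.28 to -0.078. Tyms signals were 10827 (heat) and 13513 (control) at the lowest probe and 2510 (heat) and 2722 (control) at the highest. The remaining Tyms probe, at -0.12, also lists a record of the pseudogene Tyms-ps, so its signal cannot be assigned to 1 of these genes. Rrm1 and Rrm2, the large and small subunits of ribonucleotide reductase, had 0.023 and -0.065. Tk1, the thymidine kinase of the salvage route, had 22714 (heat) and 21220 (control) at 1 RefSeq mRNA probe and 21571 (heat) and 20607 (control) at the other, differences of 0.14 and 0.10. Its other measured probes gave 0.010 and -0.12, and their mean over all 4 was 0.033.

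All 3 G1/S regulators were below 0. Ccne1, a cyclin that activates Cdk2 at S phase entry, had 8986 (heat) and 10834 (control), a difference of -0.23 from 1 probe, and -0.12 was the value of Ccne2, its paralogue. Ccne2 was dim, at 129 (heat) and 145 (control), and E2f1, a transcription factor of S phase genes, had 6286 (heat) and 6747 (control), a difference of -0.063. The deposited coordinates of the Ccne1 probe cover chr7:38882937-38882960, which is 24 of its 60 bases. With normexp and quantile normalization Ccne1 had -0.15, inside the spot spread. The median of the 3 genes was -0.12, but with normexp and 75th percentile scaling it was 0.0058, since Ccne2 and E2f1 changed sign there.

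**Figure D3:**
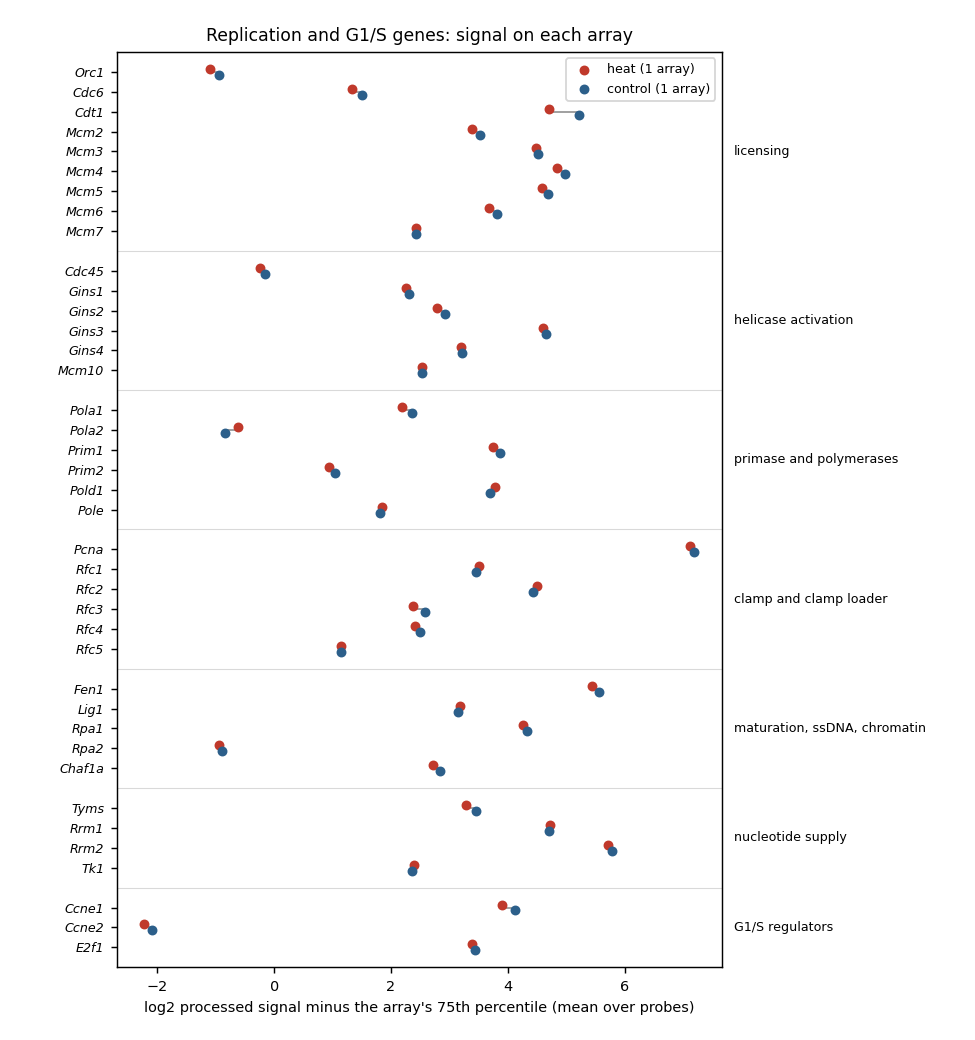
Log2 processed signal minus the array's 75th percentile (horizontal axis, mean over a gene's probes) of the 39 genes by role, with heat in red and control in blue, 1 array each. The values of a gene lie close together on both arrays, while values of different genes come from different probes and are not comparable as levels. Cdt1 has the widest gap, 4.71 against 5.22.

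Probes of 1 gene gave a further view of the spread. Of the 22 members with several measured probes, 12 (54.5%) had every probe below 0, against 24.5% of the 6553 such genes on the arrays, and 3 (Pola2, Pole and Lig1) had every probe above 0, against 27.6%. The other 7 had probes on both sides of 0. Around their gene's mean, member probes varied by an SD of 0.12, against 0.19 for all genes with several probes. This contrast was not matched for signal. The SD of gene differences was 0.14 over the genes of like signal and 0.24 over all genes. The 55 measured probes on RefSeq mRNA records had a median difference of -0.073, and the 16 on other records -0.024. All 55 records carry the member's symbol in the RefSeq table used, of assembly GRCm38.p6. Probes of 1 gene share the sample and the array and are no replicates.

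**Figure D4:**
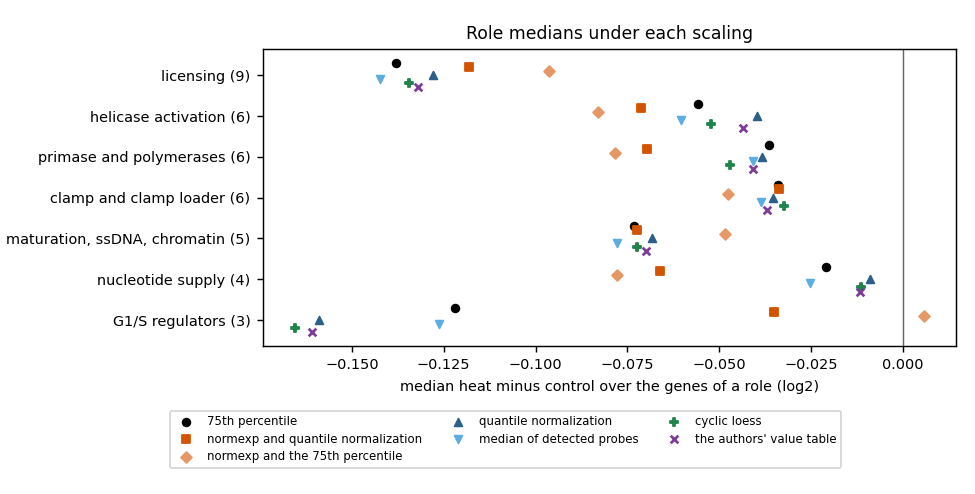
Median heat minus control difference (log2, horizontal axis) of each role under the 75th percentile scaling and 6 others, with the number of genes in brackets. Licensing genes stay between -0.14 and -0.096, and the 3 G1/S regulators run from -0.17 to 0.0058.

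E2F sites are a known feature of replication gene promoters, and E2F words, which the choice of genes did not use, were more frequent in member promoters than in all promoters, although most members with a promoter window held none. The words TTTCCCGC, TTTCGCGC, TTTGCCGC and TTTGGCGC were looked for on both strands of RefSeq promoter windows (GRCm38.p6, 250 bases before to 50 after a start). Windows were found for 31 of 39 members. At least 1 word stood in 12 of 35 member windows (34.3%), against 2.26% of all 32851 windows. CCAAT, the box bound by NF-Y, stood in 57.1% of member windows and 37.4% of all windows on either strand. The 12 genes with an E2F word had a median difference of -0.12 and the 19 without one -0.065, but their ranges, -0.50 to 0.079 and -0.23 to 0.22, overlapped. Below 0 were 9 of the 12 and 14 of the 19, a similar share. The 12 include the licensing genes Orc1, Cdc6, Cdt1, Mcm3, Mcm5, Mcm6 and Mcm7, so this split overlaps with role. A link between words and differences was not tested. A word is a description of letters and not a bound site, and the windows of Ccne1 and Pola2 held none of these words.

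The windows of the other 3 members beyond the spot spread are shown 5′ to 3′ on the gene's strand, with the E2F words in capitals. That of Cdt1 lies on the plus strand at chr8:122567765-122568064, that of Cdc6 on the plus strand at chr11:98907901-98908200 and that of Rfc3 on the minus strand at chr5:151651159-151651458. Cdt1 and Cdc6 hold 1 word each, and Rfc3 holds 2.
Cdt1: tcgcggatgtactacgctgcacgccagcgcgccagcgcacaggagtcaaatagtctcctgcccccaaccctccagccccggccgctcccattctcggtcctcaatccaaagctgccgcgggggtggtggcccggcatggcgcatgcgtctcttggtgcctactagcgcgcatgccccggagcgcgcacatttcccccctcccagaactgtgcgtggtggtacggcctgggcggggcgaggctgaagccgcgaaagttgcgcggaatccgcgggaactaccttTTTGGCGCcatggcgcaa
Cdc6: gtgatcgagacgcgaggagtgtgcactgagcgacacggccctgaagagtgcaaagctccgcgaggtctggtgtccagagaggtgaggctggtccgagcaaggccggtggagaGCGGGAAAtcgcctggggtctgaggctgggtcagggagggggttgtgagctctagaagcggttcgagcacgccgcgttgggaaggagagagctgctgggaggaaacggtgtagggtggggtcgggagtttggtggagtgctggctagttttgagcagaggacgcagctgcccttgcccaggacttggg
Rfc3: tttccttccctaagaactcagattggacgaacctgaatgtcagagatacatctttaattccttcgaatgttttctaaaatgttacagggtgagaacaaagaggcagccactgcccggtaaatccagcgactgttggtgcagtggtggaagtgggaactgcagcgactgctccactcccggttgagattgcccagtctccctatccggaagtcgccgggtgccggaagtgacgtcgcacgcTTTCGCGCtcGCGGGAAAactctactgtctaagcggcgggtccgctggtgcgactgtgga

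A further 65 genes of replication and G1/S, chosen by role with earlier results of these data known, were all measured on both arrays. Of these, 39 were below 0 and 26 above, with a median of -0.045, and 12 lay beyond the spot spread, 10 below and 2 above. That is 60.0% below 0, against 47.8% of all genes, and 12 of 65 beyond the spread is a lower share than the 32.8% of all genes. Further licensing genes were below 0 in 7 of 9 cases, with a median of -0.14. Orc2, another subunit of the origin recognition complex, had 2047 (heat) and 2348 (control) at 1 probe and 472 (heat) and 790 (control) at the other, a mean difference of -0.43, and its brighter probe alone, at -0.16, was inside the spot spread. Further G1/S regulators were 9 below 0 and 12 above, with a median of 0.013.

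Among the lowest of these 65 were a nucleotide gene, a D-type cyclin and its kinase. Rrm2b, the p53-induced subunit of ribonucleotide reductase, was lowest at -0.73, but its measured probe was dim, at 71.7 (heat) and 122 (control), and with normexp and 75th percentile scaling it had -0.34. Ccnd1, a cyclin of G1, had 17526 (heat) and 26868 (control), a difference of -0.58 from 1 probe. Cdk6, a kinase that D cyclins activate, had -0.31 and was below 0 at each of 3 probes, between -0.51 and -0.15. At the other end stood Pole4, a small subunit of polymerase epsilon, with 8289 (heat) and 6913 (control) and a difference of 0.30. With normexp Pole4 was inside the spot spread, at 0.12 with quantile normalization and 0.11 with the 75th percentile. Cdkn1b, an inhibitor of Cdk2, had 0.23, from a dim probe at 92.4 (heat) and 72.9 (control), a difference of 0.38, and a brighter RefSeq mRNA probe at 0.078. It too was inside the spot spread with normexp, at 0.12 and 0.15. The retinoblastoma gene Rb1 had 0.16, and 0.082 at its brightest probe. The repressor E2f7 had 0.15 from probes at 0.67, -0.092 and -0.12, of which the brightest gave -0.092.

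**Figure D5:**
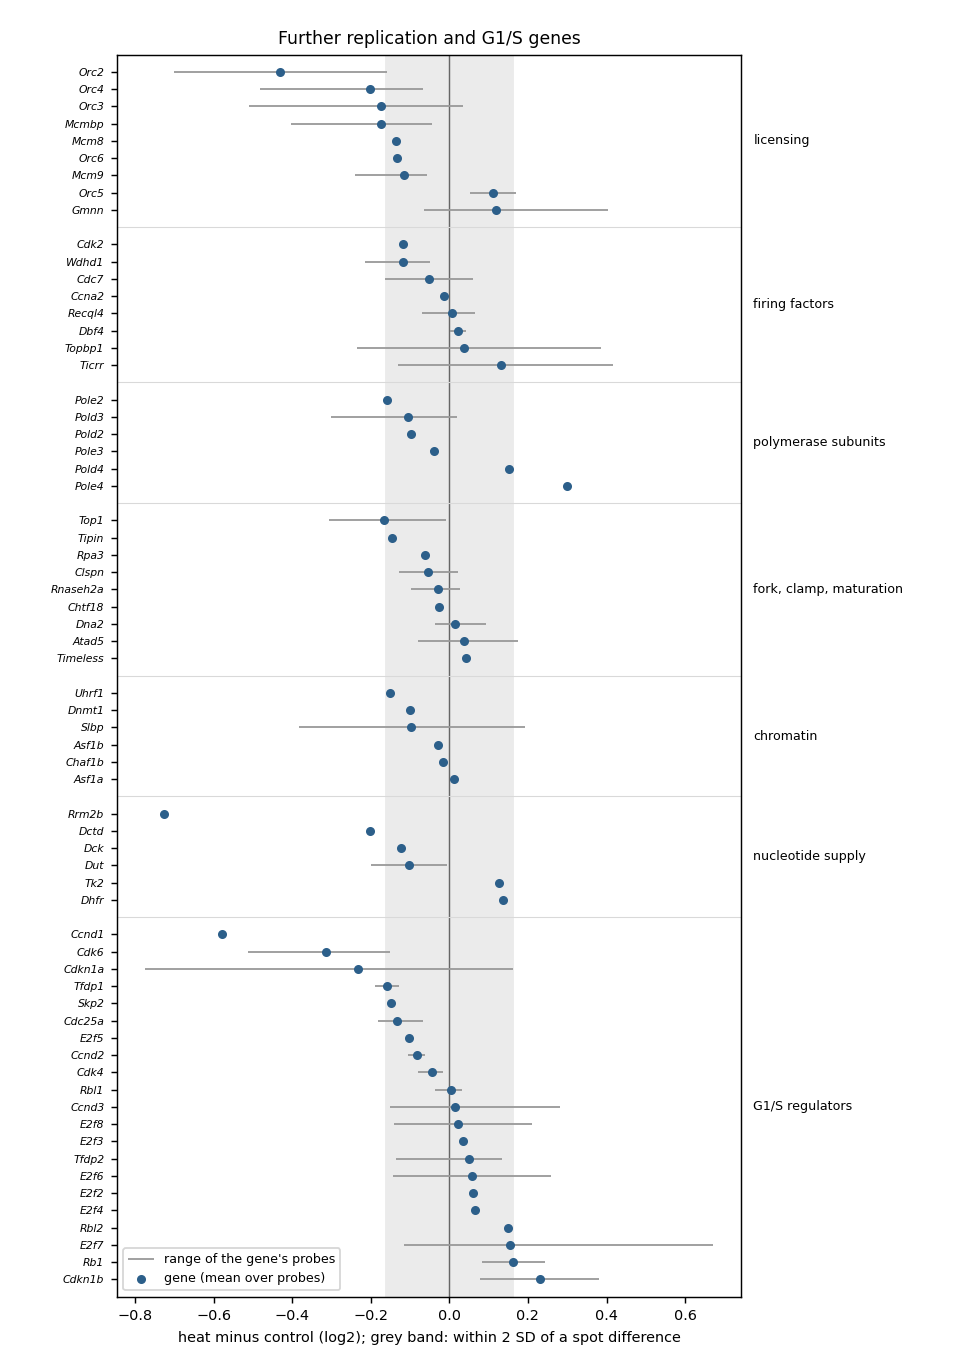
Heat minus control difference (log2, horizontal axis) of the 65 further genes by role, with points for genes, lines for the range of their probes and a grey band for 2 SD of a spot difference. Rrm2b at -0.73 and Ccnd1 at -0.58 lie lowest and Pole4 at 0.30 highest.

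The 12 markers of dividing cells had a median of -0.025, beside -0.073 for the 39 genes, and ranged from -0.11 to 0.22. Of these markers 8 were below 0 and 4 above, and of all genes 47.8% were below 0. Ccna2 is also 1 of the 65 further genes. Mki67 had 0.068 and Top2a 0.088, though Top2a was at -0.016 at its brightest probe. The summed signal of their 21 measured probes, in multiples of the array's 75th percentile, was 343 (heat) and 347 (control). The 10 monocyte and macrophage markers had a median of 0.080, with 8 above 0, against 9696 of all 18562 genes. Their summed signal was 1612 (heat) and 1570 (control) over 19 probes. The part of either cell group in the replication gene differences was not tested.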

How the data were processed

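RNA from mouse blood was measured on 1 array per group. Per the file headers, the deposited intensity values (processed signal, mean signal, local background) came from Agilent Feature Extraction 10.7.1.1 with protocol GE1_107_Sep09 and mm9 probe coordinates, and the submitters' processing notes name version 9.1. The authors' deposited log2 values matched quantile-normalized log2 processed signals of each array (rounded r of 1 for each), with a median of 5.26 in each column, and were used as an alternative.

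Outlier spots were left out and no spot was saturated. Spots of a probe were averaged on the log2 scale, each array's 75th percentile (604 for heat, 620 for control) was subtracted, and a gene's difference was the mean over probes well above background in over 0.5 of their spots on both arrays. Genes were named by the files, and some cell type markers are not reported here. No p-values were computed, since each group held 1 array, whose number limits the precision. The scaling and the 2-fold calls were tested on simulated data with planted differences of more than 2-fold. Smaller planted differences and calls beyond the spot spread were not simulated. Members, lists, rules and alternatives were chosen with earlier results of these data known. All members were named, and of the 65 further genes the 4 lowest and 4 highest. R 4.3.3, limma 3.58.1, Python 3.11.15, numpy 2.4.6, pandas 2.3.3 and matplotlib 3.10.9 were used. Alternatives were normexp (offset 50), other scalings, other probe filters, other thresholds and, chosen after seeing the data, RefSeq mRNA probes alone.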

Additional observations from a re-analysis of the deposited data

How the results depend on the processing

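The 39 genes kept a median below 0 under every alternative run, between -0.094 and -0.068, with 28 to 31 of them below 0 and 0 of them 2-fold apart, except that the brighter-probe setting held 37 of them (28 below 0, median -0.089), without Orc1 and Ccne2. The share of all genes below 0 was 64.1% with dim probes kept and between 42.7% and 51.3% with the other scalings and filters. The count beyond the spot spread was 5, and it was 3 with normexp and quantile normalization, 8 with cyclic loess, 8 with the brightest probe per gene and 1 (Cdt1) at 3 SD. All genes had a higher share beyond it each time, but only barely among the brighter probes. There 7 of 37 members lay beyond it, beside 19.0% of all genes. The all-gene share was 32.8%, and 20.6% with normexp and quantile normalization, 32.4% with cyclic loess, 32.4% with the brightest probe and 18.7% at 3 SD. The median of the 3 G1/S regulators, -0.12, was -0.035 with normexp and quantile normalization and 0.0058 with normexp and the 75th percentile. The cause of these shifts was not tested. Of all genes, 123 were 2-fold apart, against 38 with normexp and quantile normalization, 36 with normexp and the 75th percentile, 1735 with dim probes kept, 17 among the brighter probes, 56 with RefSeq mRNA probes alone (chosen after seeing the data) and 11 at 4-fold. These probe filters also changed how many genes were tested, 37068 with dim probes kept, 10837 among brighter probes and 12325 with RefSeq mRNA probes, against 18562. Of 487 values of single named genes under alternatives, 47 moved by more than 1 SD of a spot difference, and no gene beyond the spot spread changed sign. With dim probes kept, the median of all genes moved to -0.099, lower than the -0.073 of the 39 genes in that setting. Dim members such as Ccne2 and the Rpa2 probe at 41.6 (heat) and 42.0 (control) are limited by signal over background. No replicate could be left out, and no paired analysis was possible because each group held 1 array.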
